A study of Mus musculus with 4 samples.

Results

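A set of 10 genes of interferon induction and reception were followed across single cells of the mouse liver, namely Ifnb1, Ifih1, Irf3, Irf5, Irf7, Irf9, Ifnar1, Ifnar2, Ifngr1 and Ifngr2. They were found by their symbol in the deposited feature lists, and all 10 of them were present among 32285 listed genes. The study compared livers of male C57BL/6J mice on normal chow (NCD, 1 library), on a high-fat diet (HFD, 2 libraries) and on the same diet with later dosing of a formula of several herbs, Jiangtang Qingre Formula (JQF, 1 library). The comparison of HFD with NCD addresses the diet, and that of JQF with HFD addresses the formula given to mice on the same diet. Livers were perfused and digested, red blood cells and dead cells were removed, and droplet 3' libraries were sequenced. Per the labels, 1 liver sample was taken for NCD, 2 for HFD and 1 for JQF. Because NCD and JQF had 1 library each, diet or treatment and library cannot be told apart for them, and only the HFD libraries show the spread between samples. The tests below assume that the single libraries vary like the HFD pair. The p-values measure only a spread estimated from that pair and in part shared over genes, which may be technical.

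A UMI marks a distinct RNA molecule counted once. Cells were kept if they showed 500 genes or more and if mitochondrial transcripts made up no more than 20% of their UMIs. They numbered 5975 in NCD 1, 6516 in HFD 1, 10259 in HFD 2 and 8540 in JQF 1, with a median of 7608 to 13081 UMIs per cell. Cells were placed in 17 classes of 5 marker genes each, by the class with the most detected markers, and 7.28% to 12.4% of the cells per library stayed unassigned. The labels name the material as immune cells, but 3762 of the NCD cells carried the endothelial markers against 107 in HFD 1, 1184 in HFD 2 and 598 in JQF 1. Of the tested classes, 12 had their own markers among their 10 leading genes. The exception was the class gated on metabolic genes, with Cps1, Pck1, Hpd and Cyp2e1 among them. None of its markers was among its leading genes and it had a median of 2610 UMIs in NCD and 2756 in JQF, far below the medians of those libraries, though 7196.5 in HFD 1 and 3642 in HFD 2. Its leading genes included Fabp1, Apoa4 and Hpx. By the naming rule used, it was given no cell type name and is called the Cps1/Pck1-gated cells. Pairs of libraries shared 12 to 27 kept barcodes. Cells with 2 or more markers of a class of another lineage made up 19.9% to 29.9% of the kept cells, and doublets were not called. Levels below are CPM, a gene's UMIs in a class divided by all UMIs of that class in the library, times 1000000, orders of classes are over the 13 tested classes, and a level does not separate how many cells express a gene from how much each holds.

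Interferon-beta, encoded by Ifnb1, is secreted when a cell recognises foreign or misplaced nucleic acid. Sensors such as MDA5, the product of Ifih1, signal through adaptors and kinases to the factors IRF3, IRF5 and IRF7, which bind the Ifnb1 promoter together with NF-kB and AP-1. The secreted protein binds the receptor pair IFNAR1 and IFNAR2 on the same and neighbouring cells, and a complex that holds IRF9 then switches on interferon-stimulated genes, Ifih1 and Irf7 among them. Interferon-gamma, a product of T and NK cells, uses the separate receptor IFNGR1 and IFNGR2. In the liver, macrophages, dendritic cells and plasmacytoid dendritic cells are known sources of these signals.

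Stretches of the Ifnb1 and Ifih1 start regions are shown because both genes turned out to be raised in the same cells. They were read from RefSeq promoter windows on GRCm38.p6, each covering 250 bases before and 50 after a start. The Ifnb1 stretch lies at chr4:88522871-88522950 on the minus strand, from position -156 to -77 of the RefSeq start, and capitals mark a pair of GAAA blocks 3 bases apart (a spacing bound by interferon regulatory factors), a GGGA and TTCC pair 2 bases apart (an NF-kB type motif) and a TATA box. The Ifih1 stretch lies at chr2:62646206-62646233 on the minus strand, from position 23 to 50 after the start, and capitals mark a pair of GAAA blocks 2 bases apart, the core of the interferon-stimulated response element.
Ifnb1: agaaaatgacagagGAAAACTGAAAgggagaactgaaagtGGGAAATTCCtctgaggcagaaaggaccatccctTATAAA
Ifih1: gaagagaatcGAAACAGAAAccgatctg
On both strands of 32851 such windows, the GAAA pair with any 2 bases between was found in 3.44%, the GAAA pair with any 3 bases between in 2.75%, and the GGGA and TTCC pair in 1.47%. All 10 genes had a window, and 3 of them held any of the 3 motifs. The third was Ifngr2, with the GGGA and TTCC pair on the reverse strand from -75 to -66, and Ifih1 also held the GAAA pair 3 bases apart on the reverse strand from -107 to -97. A match describes letters only.

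The 10 genes are all protein-coding in GENCODE M21 on GRCm38. Ifnb1 is an intronless gene of 750 bases on chromosome 4 from 88522025 to 88522774, minus strand. Ifih1 spans 62595798 to 62646255 of chromosome 2, minus strand, and its longest transcript model has 16 exons. The receptor genes Ifnar2, Ifnar1 and Ifngr2 lie near each other on the plus strand of chromosome 16, with Ifnar2 from 91372783 to 91405589, Ifnar1 from 91485238 to 91507441 and Ifngr2 from 91547072 to 91565623. Irf9 overlaps Rnf31 and Ifnar2 overlaps Gm21970 on the same strand, so reads of these genes could be shared.

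Ifnb1 was carried by few cells, and their share was lowest in NCD and highest in the HFD libraries. At least 1 Ifnb1 UMI was found in 8 of 5975 NCD cells (0.134%, exact Clopper-Pearson 95% interval 0.0578% to 0.264%), 176 HFD 1 cells (2.70%, 2.32% to 3.12%), 194 HFD 2 cells (1.89%, 1.64% to 2.17%) and 72 JQF cells (0.843%, 0.660% to 1.06%). These intervals cover counting error only. The HFD mean was 2.30% ± 0.573 (SD, n = 2), and both the NCD and the JQF share lay below both HFD shares. Cells of at least 3000 UMIs were also thinned to 3000, and the others were left out. Over the 5230, 5824, 8868 and 7964 thinned cells the shares were 0.0574%, 1.72%, 1.14% and 0.427%, in the same order of libraries. The 450 positive cells held 2919 Ifnb1 UMIs. Of these cells, 187 (41.6%) held a single UMI, whereas 95 cells with 10 or more held 70.1% of all Ifnb1 UMIs, up to 83 in 1 cell. Ifnb1 was also found outside called cells, as given below, and its part in the cells with a single UMI was not tested.

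Most Ifnb1-positive cells were mononuclear phagocytes, taken as macrophages, monocytes, conventional dendritic cells (DC) and mature DC. They were 4 of the 8 positive cells in NCD, and their part of the positive cells was 67.0% in HFD 1, 77.3% in HFD 2 and 72.2% in JQF. Within this lineage, 4 of 346 cells were positive in NCD (1.16%, exact interval 0.316% to 2.93%), 118 of 2311 in HFD 1 (5.11%, 4.24% to 6.08%), 150 of 4630 in HFD 2 (3.24%, 2.75% to 3.79%) and 52 of 1926 in JQF (2.70%, 2.02% to 3.53%). The intervals of NCD, JQF and HFD 2 overlapped each other and lay below that of HFD 1, whereas over all cells no 2 libraries overlapped. The lineage itself made up 346 of 5975 kept cells in NCD, 2311 of 6516 in HFD 1, 4630 of 10259 in HFD 2 and 1926 of 8540 in JQF, so the shares over all cells also carry the make-up of the libraries. The lineage level was 2.56 CPM in NCD, 32.0 in HFD 1, 13.7 in HFD 2 and 9.92 in JQF. HFD 1 was thus above HFD 2 by more than HFD 2 was above JQF. B cells, a class not known for Ifnb1, had 0%, 0%, 0.259% and 0.274% positive cells in the same order. Their median depth was 4854.5 to 8039 UMIs per cell, against 10356 to 13976.5 in macrophages, and the lineage shares lay above the B cell shares in every library. In endothelial cells 0 of 3762 were positive in NCD, which allows a share of cells with a UMI of up to 0.0797% at 3 counts of the total, or 0.0980% by the exact interval, and 0 of 107, 5 of 1184 and 1 of 598 were positive in HFD 1, HFD 2 and JQF.

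**Figure D1:**
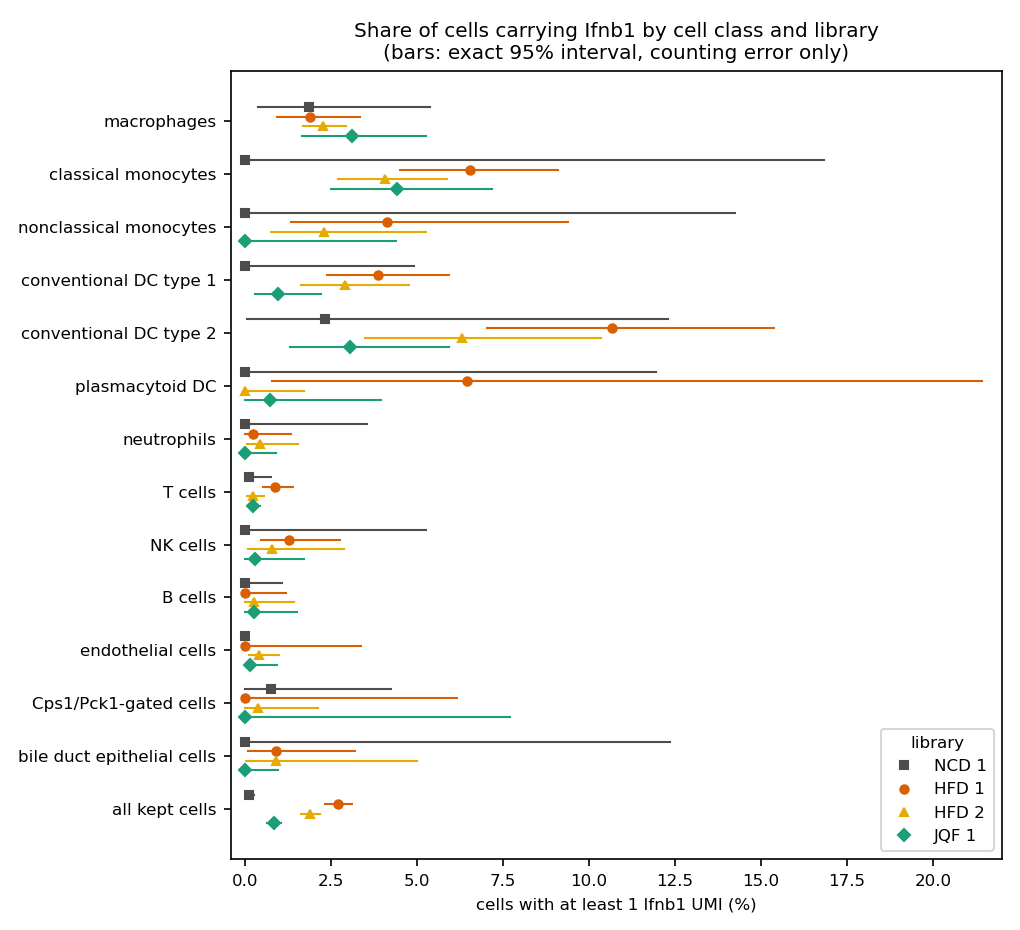
Share of cells with at least 1 Ifnb1 UMI (x axis, percent) for each cell class (y axis), with 1 symbol per library and exact 95% intervals that cover counting error only. Conventional DC type 2 of HFD 1 reached 10.7%, and over all kept cells the shares were 0.134% in NCD, 0.843% in JQF, 1.89% in HFD 2 and 2.70% in HFD 1.

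By the mean over the 4 libraries, conventional DC type 2 held the highest Ifnb1 level of the classes, with 1.12 CPM in NCD, 67.1 in HFD 1, 42.3 in HFD 2 and 25.4 in JQF. In JQF, 1 cell held 83 of the 105 UMIs behind that level. In NCD, macrophages were higher, at 6.83 CPM. Conventional DC type 2 were followed by classical monocytes at 0, 63.2, 12.7 and 9.42 CPM. Next came nonclassical monocytes at 0, 42.0, 4.54 and 0 CPM. Macrophages went a different way, since NCD at 6.83 CPM lay between HFD 1 at 6.27 and HFD 2 at 11.8, and JQF at 16.5 lay above both. The NCD level came from 17 UMIs in 3 of 160 cells, 10 of them in 1 cell, and in JQF 1 cell held 35 of 89 UMIs. Clec4f, a Kupffer cell marker, was found in 87.5% of the macrophages of NCD, 31.5% in HFD 1, 69.4% in HFD 2 and 61.6% in JQF, and its part in these values was not tested. Conventional DC type 1 had 0, 21.5, 6.60 and 3.14 CPM, and NK cells 0, 22.2, 2.89 and 0.380. Over the 13 tested classes, the range over libraries overlapped that of the next class for every neighbouring pair, so the order of classes is not separated from the spread between libraries. Plasmacytoid DC, known for interferon-alpha, carried Ifnb1 in 3 of 410 cells of 4 libraries. They were 0 of 29 in NCD, 2 of 31 in HFD 1 (6.45%, exact interval 0.791% to 21.4%), 0 of 212 in HFD 2 and 1 of 138 in JQF.

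For HFD against NCD, Ifnb1 passed the test in 1 of 10 classes in which it could be fitted, conventional DC type 2, where NCD held 1 UMI and HFD 350. The ratio was 48.9, with a counting interval of 8.73 to 1938 that takes UMIs as independent. The fitted log2 fold change was 5.35 ± 0.66 (SE, adjusted p = 3.16e-14, edgeR quasi-likelihood test). By cells, 1 of 43 was positive in NCD (2.33%, exact interval 0.0589% to 12.3%). That interval overlapped the one of HFD 1 (25 of 234 cells, 10.7%, 7.03% to 15.4%), and HFD 2 had 14 of 222 positive cells. Without the filter on low counts the adjusted p was 0.258 and 0 of 18054 genes were called in this class, and the call held in the 6 other alternatives. In classes where NCD held no Ifnb1, the fold was bounded with 3 UMIs per library. Such a bound takes UMIs as independent, although single cells held many, so it sets no minimum by cells. It was 11.5-fold higher in conventional DC type 1, 4.01-fold in NK cells, 3.39-fold in classical monocytes and 1.70-fold in nonclassical monocytes. NCD held 20 classical monocytes. The adjusted p was 0.0701, 0.103, 0.406 and 0.108 in these 4 classes (edgeR). By cells, the exact intervals of NCD reached 4.93%, 5.28%, 16.8% and 14.2%, above the HFD 1 shares of 3.88%, 1.28%, 6.53% and 4.13%. For conventional DC type 1 the bound was 17.3-fold from HFD 1 alone and 5.30-fold from HFD 2 alone. For classical monocytes it was 6.48-fold from HFD 1 alone and 1.30-fold from HFD 2 alone. For NK cells and nonclassical monocytes HFD 2 alone lay under the floor of 3 UMIs in NCD and gave no fold. HFD 1 alone gave bounds of 5.45-fold and 3.99-fold in these classes. In NK cells 88 of the HFD UMIs lay in 6 cells of HFD 1, 45 of them in 1 cell, and 5 were in HFD 2. Of the 9 positive NK cells of all libraries, 5 carried markers of a second lineage. So did 29 of 48 positive conventional DC type 2, 18 of 40 conventional DC type 1 and 17 of 32 T cells. The counts were 8 of 81 in macrophages and 2 of 74 in classical monocytes. Of all conventional DC type 2, removing such cells left 124 of 234 in HFD 1 and 97 of 222 in HFD 2. It left 261 of 516 and 248 of 514 conventional DC type 1, and 513 of 584 and 1903 of 2383 macrophages. Classical monocytes kept 470 of 490 and 630 of 663, T cells 1669 of 2018 and 1570 of 2052, and NK cells 385 of 470 and 181 of 249. Second-lineage markers were thus more common in positive than in all T and NK cells, but not in conventional DC type 1 or macrophages. In endothelial cells the bound was 60.7-fold, but HFD 1 held 0 UMIs in 107 cells and all 27 UMIs came from HFD 2. In neutrophils it was 2.12-fold, with 1 UMI in HFD 1 and 35 in HFD 2, 34 of them in 1 cell. The adjusted p was 0.114 and 0.349. The exact intervals of the share of positive cells overlapped between the HFD libraries in both classes.

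For JQF against HFD, Ifnb1 passed the test as lower in 2 of 10 classes. In conventional DC type 2 it fell by 0.94 on the log2 scale (SE 0.23, adjusted p = 0.00302), from 67.1 and 42.3 CPM in the HFD libraries to 25.4 in JQF. JQF was below both HFD libraries there, although most of its UMIs lay in 1 cell, and the call held in only 2 of 7 alternatives and was lost with DESeq2, without TMM scaling, without the filter, with the stricter gate and with second-lineage cells removed. In nonclassical monocytes JQF held 0 UMIs in 82 cells against 55 in HFD (adjusted p = 0.0387, edgeR). The bound at 3 UMIs was 6.06-fold lower, which takes UMIs as independent and sets no minimum by cells. By cells, 5 of 121 were positive in HFD 1 (4.13%, exact interval 1.36% to 9.38%) and 5 of 218 in HFD 2 (2.29%, 0.749% to 5.27%). The HFD UMIs lay in 10 cells, with 46 UMIs in 5 cells of HFD 1, 28 of them in 1 cell, and 9 in 5 cells of HFD 2. That bound was 14.3-fold against HFD 1 and 1.54-fold against HFD 2, and the call held in 3 of 7 alternatives.

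Cells that carried Ifnb1 also carried far more Ifih1 than the other mononuclear phagocytes of the same library. In HFD 1 the Ifih1 level was 1064 CPM in 118 positive cells and 191 in 2193 negative cells. In HFD 2 it was 1249 against 129, and in JQF 1260 against 114, so the ratio was 5.57, 9.68 and 11.04. The 4 positive cells of NCD held 926 CPM against 184. These ratios compare cells of the same library and are a description with no test. The lineage pools classes that differ in Ifih1 level and in their share of positive cells. In HFD 1, conventional DC type 2 had 25 of 234 positive cells and 443 CPM, and macrophages 11 of 584 and 196 CPM. The part of class make-up in the ratios was not tested. After thinning to 3000 UMIs, Ifih1 was detected in 58.5% of the positive and 23.7% of the negative cells of HFD 1, 70.5% and 22.1% in HFD 2, and 61.5% and 18.2% in JQF. The difference was thus present at equal depth, among cells of at least 3000 UMIs.

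The Ifih1 level was higher in cells with more Ifnb1 UMIs. In HFD 1 it was 191 CPM at 0 Ifnb1 UMIs, 483 at 1 UMI, 1230 at 2 to 9 and 1364 at 10 or more. The same steps in HFD 2 were 129, 555, 1354 and 2446 CPM. In JQF they were 114, 560, 1572 and 3023 CPM, the last from 7 cells. Rsad2, an interferon-induced gene, had like steps, with 115, 196, 419 and 1339 CPM in HFD 1, 197, 558, 1254 and 2017 in HFD 2, and 53.3, 52.6, 383 and 1858 in JQF. Irf7, which interferon also induces, showed no shared steps, with 109, 129, 121 and 139 CPM in HFD 1, 146, 137, 131 and 67.2 in HFD 2, and 63.4, 32.0, 60.4 and 308 in JQF. Cxcl10 rose at every step in HFD 2 and JQF but had 202, 637, 1027 and 815 CPM in HFD 1. Tnf rose at every step in JQF only, with 224, 254, 940 and 366 CPM in HFD 1 and 233, 735, 853 and 659 in HFD 2.

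**Figure D2:**
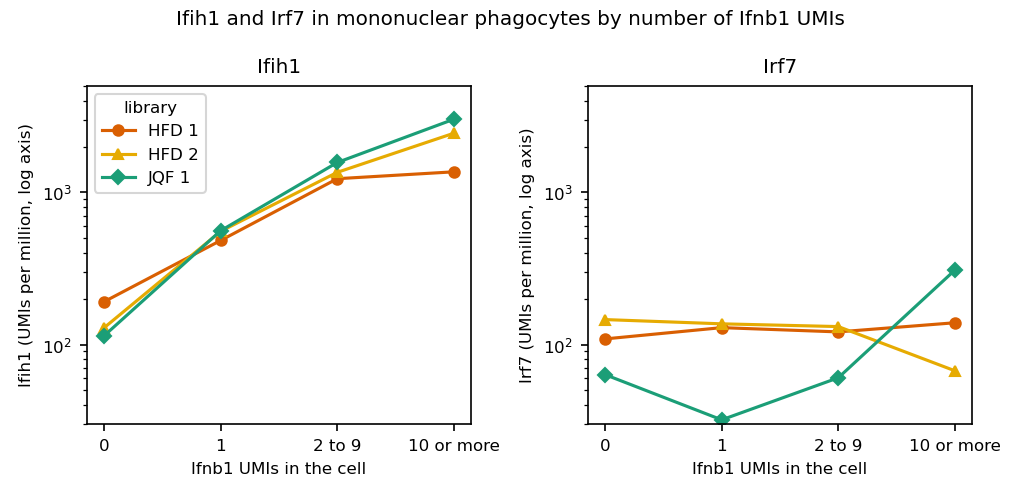
Level of Ifih1 (left) and Irf7 (right) in CPM (log axis) in mononuclear phagocytes grouped by their number of Ifnb1 UMIs, with 1 line per library. NCD is left out since it held 4 positive cells. Ifih1 climbs from 114 to 191 at 0 Ifnb1 UMIs to 1364 to 3023 at 10 or more, and Irf7 has no shared direction.

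The remaining members lay near a ratio of 1 between Ifnb1-positive and Ifnb1-negative mononuclear phagocytes of HFD 1, HFD 2 and JQF. The ratio ran from 0.742 to 1.19 for Irf3, 0.998 to 1.09 for Irf5, 0.833 to 1.19 for Irf7 and 0.840 to 1.02 for Irf9. For the receptors it ran from 1.03 to 1.06 for Ifnar1, 0.914 to 0.940 for Ifnar2, 0.734 to 0.950 for Ifngr1 and 0.839 to 1.06 for Ifngr2. Ifih1 was thus the member that stood apart. Ddx58, which encodes RIG-I, the sister sensor of MDA5, ran from 0.534 to 1.28. Of the 7 interferon readout genes on the list, 6 were above 1 in all 3 libraries, led by Ifit1 at 4.64 to 11.5, Rsad2 at 5.71 to 7.36, Ifit2 at 4.43 to 7.84 and Cxcl10 at 3.97 to 6.43. Ifit3 ran from 0.914 to 4.17. The cytokine genes Tnf and Ccl4 had ratios of 2.38 to 3.32 and 4.04 to 4.88. Other cytokine genes differed, with Il12b at 0.0488 to 0.540, Il1b at 1.03 to 1.76 and Il6 at 1.82 to 8.54. Ddx58, Tnf, Ccl4, Irf8 and Tyk2 were picked for display after their values had been seen.

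**Figure D3:**
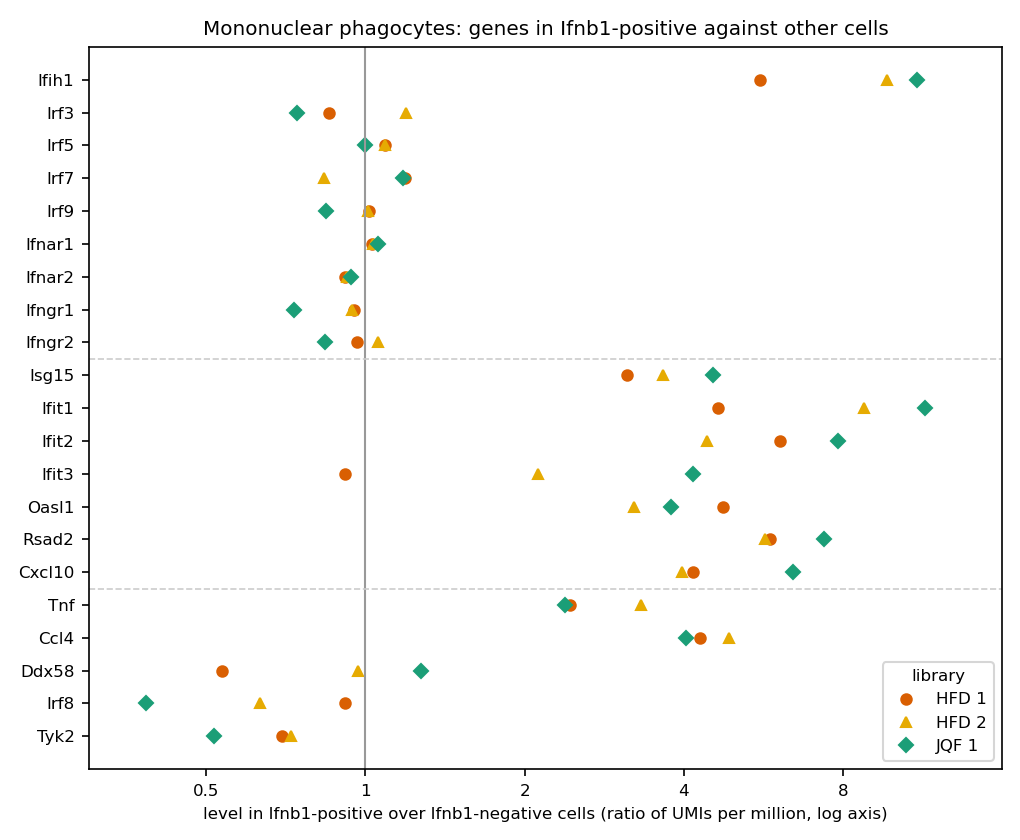
Ratio of the level in Ifnb1-positive to that in Ifnb1-negative mononuclear phagocytes (x axis, log scale) for the other members, the interferon readout genes and 5 further genes (y axis, separated by dashed lines), with 1 symbol per library. Ifih1 lies at 5.57 to 11.04, whereas the other members lie between 0.734 and 1.19.

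Macrophages held the most Ifnb1-positive cells of a single class, 81 of 3544. Among genes found in at least 30% of them, the largest ratio of shares belonged to Grasp, detected in 34.6% of positive and 6.12% of negative cells. The cells were pooled over the libraries, with 3 positive cells from NCD, 11 from HFD 1, 54 from HFD 2 and 13 from JQF, and were not matched for depth, so the shares are a description with no test. The others, in order, were 4930523C07Rik, Ildr1, Zc3h12c, Smim3, Cbfa2t3, Sema4a, Gpr141, Acod1 and Clec4e. Acod1, which encodes the enzyme that makes itaconate in activated macrophages, was found in 60.5% against 20.7%. Clec4e encodes Mincle, an activating receptor of macrophages, and was found in 40.7% against 14.0%.

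Across all classes, the 10 genes gave 127 tests of HFD against NCD. Of these, 11 were higher and 12 lower in HFD (18.1% called), beside 10.5% called over all genes tested in the same classes (4.21% higher and 6.3% lower). Irf7, Irf5, Ifih1 and Ifnb1 made up the higher calls with 5, 3, 2 and 1. Ifnar1, Ifngr2, Ifngr1 and Ifih1 made up the lower calls with 6, 3, 2 and 1, whereas Irf3, Irf9 and Ifnar2 passed in no class. By class, 4 of 10 members were called in T cells, where 6.23% of all genes were, 2 of 10 in NK cells (16.9%), 3 of 9 in B cells (18.5%), 1 of 10 in plasmacytoid DC (3.79%) and 2 of 10 in nonclassical monocytes (20.4%). The counts were 2 of 10 in conventional DC type 1 (16.7%), 4 of 10 in conventional DC type 2 (23.7%), 3 of 10 in endothelial cells (5.86%) and 2 of 9 in the Cps1/Pck1-gated cells (27.5%). The shares in NK cells, nonclassical monocytes, conventional DC type 1 and the Cps1/Pck1-gated cells were thus near those of all genes. The median log2 fold change of the members was 0.30, or 0.29 with bounded values, against 0.10 over all tests. Without Ifnb1, whose fitted values were all positive, it was 0.22. Without TMM scaling the split of calls was 16 higher and 11 lower, and with DESeq2 it was 7 and 5. For JQF against HFD, 0 members were higher and 4 were lower (3.15% called), beside 0.65% over all genes (0.483% higher and 0.166% lower). These calls were 2 in nonclassical monocytes, where 2.28% of all genes were called, and 2 in conventional DC type 2, where 4.16% were. The same 2 HFD libraries enter both comparisons, so their values are given side by side only. In macrophages, 0 of 13308 genes passed the edgeR test of HFD against NCD, although 4039 had an unadjusted p under 0.05, and DESeq2 called 763. Without TMM scaling edgeR called 509 there, and without the filter on low counts 3986. For JQF against HFD in macrophages, edgeR called 0, with 967 under an unadjusted 0.05, and DESeq2 called 32. Without TMM scaling edgeR called 0, and without the filter 657. Bile duct epithelial cells likewise had 0 calls by edgeR with the main settings in both comparisons, with 432 and 336 genes under an unadjusted 0.05, and 23 and 40 calls by DESeq2.

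**Figure D4:**
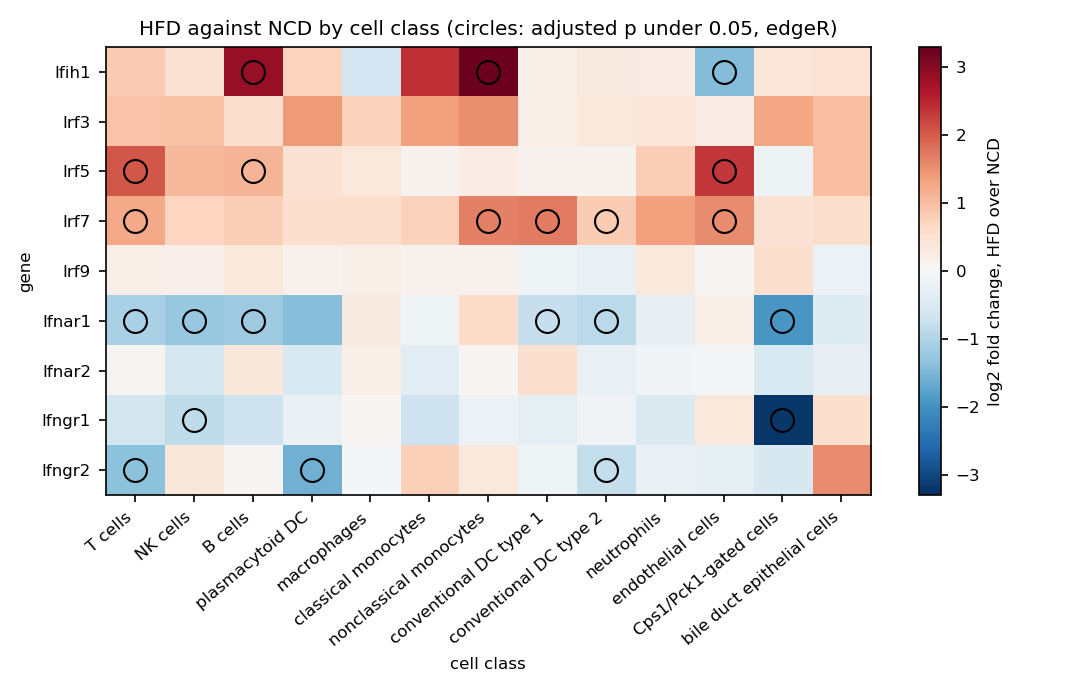
Fitted log2 fold change of HFD over NCD (colour) for 9 members (rows) in 13 cell classes (columns), with circles where the edgeR adjusted p was under 0.05. Ifnb1 is left out because NCD held none in most classes. Irf7 and Irf5 are circled in red, Ifnar1, Ifngr1 and Ifngr2 in blue, and Ifih1 in both colours.

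Ifih1, the sensor gene, was higher in HFD in 2 classes and lower in 1. In nonclassical monocytes it was 21.1 CPM in NCD, 255 in HFD 1, 170 in HFD 2 and 220 in JQF. It was higher in HFD by 3.23 ± 0.47 (log2, SE, adjusted p = 9.28e-06), and the call held in 7 of 7 alternatives. The classical monocyte markers summed to 84.3 CPM in these NCD cells and to 446 to 527 in the other libraries, with 2 of 5 at 0 in NCD, and their part in the result was not tested. In B cells Ifih1 was 2.64, 23.4, 18.4 and 22.8 CPM in NCD, HFD 1, HFD 2 and JQF, and HFD was higher by 2.88 ± 0.45 (adjusted p = 0.00692). That call was lost without the filter, with the stricter gate and with second-lineage cells removed, where the largest adjusted p was 0.211, and none of these 3 settings called any gene in B cells. In endothelial cells the order turned, with 201 CPM in NCD, 105 in HFD 1, 70.2 in HFD 2 and 74.1 in JQF. NCD lay above every other library, and Ifih1 fell by 1.42 on the log2 scale (SE 0.25, adjusted p = 0.0338) in a call that held in 7 of 7 alternatives. Stab2, a marker of this class, was found in 97.2% of its cells in NCD, 62.6% in HFD 1, 88.2% in HFD 2 and 86.1% in JQF. The part of this difference in make-up was not tested.

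In T cells Ifih1 was 155 CPM in NCD, 411 in HFD 1, 169 in HFD 2 and 476 in JQF. The HFD libraries thus lay further apart from each other than HFD 2 did from NCD, and neither comparison passed. Classical monocytes had 55.2, 411, 191 and 276 CPM, with NCD below every other library but an adjusted p of 0.0985 for HFD against NCD. In conventional DC type 2 Ifih1 was 282, 443, 365 and 139 CPM. JQF was below both HFD libraries and Ifih1 fell by 1.38 (log2, SE 0.23, adjusted p = 3.40e-07), a call that was lost only without the filter on low counts. Over the classes, B cells were the only class whose range of Ifih1 levels lay apart from that of its neighbour in the order.

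Irf7, the factor that drives most interferon-alpha genes and is itself induced by interferon, had a positive fitted difference of HFD over NCD in all 13 classes and passed in 5. In conventional DC type 1 it was 20.8 CPM in NCD, 90.5 in HFD 1, 61.0 in HFD 2 and 52.2 in JQF, a log2 difference of HFD over NCD of 1.73 ± 0.31 (adjusted p = 0.0263). Nonclassical monocytes had 31.6, 118, 96.3 and 25.6 CPM, with a difference of 1.66 ± 0.42 (adjusted p = 0.00513). In both classes NCD was below both HFD libraries. Endothelial cells had 13.6, 53.1, 39.6 and 18.7 CPM (1.55 ± 0.28, adjusted p = 0.0338). T cells had 19.0, 50.7, 42.9 and 34.3 CPM (1.25 ± 0.20, adjusted p = 0.0296). Conventional DC type 2 had 23.4, 48.5, 49.1 and 29.7 CPM (0.85 ± 0.33, adjusted p = 0.0448), and this call was lost in 4 of 7 alternatives. The call in nonclassical monocytes was lost with DESeq2 (adjusted p = 0.185), and those in conventional DC type 1, endothelial cells and T cells held in 7 of 7. Macrophage markers summed to 13.6, 373, 265 and 124 CPM in the endothelial class, to 15.9, 32.2, 262 and 32.4 in T cells and to 9.97, 87.9, 170 and 12.3 in conventional DC type 1, and their part was not tested.

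For JQF against HFD, Irf7 passed in nonclassical monocytes, where 25.6 CPM in JQF lay below both HFD libraries and below NCD. It fell by 1.97 on the log2 scale (SE 0.32, adjusted p = 0.000308), a call lost with DESeq2 and with the stricter gate. Macrophage markers in that class summed to 309, 636, 453 and 129 CPM, in the same order of libraries, with 4 of 5 at 0 in NCD and their part in the result not tested. Macrophages held the highest Irf7 level of all classes, 139, 181, 213 and 136 CPM, in a range that did not overlap that of classical monocytes, the next class.

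Irf5, a factor of myeloid and B cells downstream of Toll-like receptors, was highest in conventional DC type 1 at 250, 319, 287 and 244 CPM. Of the tested classes, classical monocytes at 231 to 257 CPM followed with an overlapping range. The myeloid levels did not pass the test in either comparison. HFD against NCD passed in T cells, with 4.04 CPM in NCD, 17.0 in HFD 1, 17.1 in HFD 2 and 19.3 in JQF (2.04 ± 0.29, adjusted p = 0.0221). It also passed in endothelial cells, with 2.63, 14.2, 15.1 and 8.39 CPM (2.33 ± 0.43, adjusted p = 0.0362), and in B cells, with 41.2, 90.5, 98.4 and 68.0 CPM (1.13 ± 0.22, adjusted p = 0.0144). NCD was below every other library in each of the 3 classes. All 3 calls were lost when cells with markers of a second lineage were removed, where the fitted differences were 1.46 in T cells (adjusted p = 0.0515), 1.89 in endothelial cells and 1.20 in B cells. In B cells that setting called 0 of 10078 genes. Macrophage markers in B cells summed to 27.4, 53.2, 103 and 51.5 CPM, beside the T cell and endothelial values above, and their part was not tested. In barcodes outside the called cells Irf5 was at 18.2 CPM in NCD 1, 124 in HFD 1, 118 in HFD 2 and 62.5 in JQF 1. The part of such UMIs in the 3 calls was not tested.

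Irf3, which is present before stimulation and is activated by phosphorylation, was below both HFD libraries in NCD in all 13 classes. Its largest fitted difference, in nonclassical monocytes, was 10.5 CPM in NCD against 32.9 in HFD 1, 32.8 in HFD 2 and 30.5 in JQF, with 3 UMIs in NCD. The ratio of HFD to NCD was 3.12, with a counting interval of 1.04 to 15.4 (adjusted p = 0.101). No class passed the test in either comparison, and the smallest adjusted p for HFD against NCD was 0.0545, in T cells with 20.7, 45.0, 37.3 and 31.3 CPM. The classes share the same 4 libraries and are not independent.

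Irf9, the DNA-binding part of the complex below the interferon-alpha and -beta receptor, was the flattest of the factors. Its fitted differences of HFD over NCD ran from -0.24 to 0.54 over the 13 classes. In conventional DC type 2 its levels were 78.1, 86.7, 67.0 and 71.0 CPM, with NCD between the HFD libraries. No class passed in either comparison.

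Ifnar1, a chain of the interferon-beta receptor, was lower in HFD than in NCD in 6 classes. T cells had 183 CPM in NCD, 90.4 in HFD 1, 89.5 in HFD 2 and 120 in JQF, and Ifnar1 fell by 1.06 (log2, SE 0.16, adjusted p = 0.0235). NK cells had 181, 97.6, 76.9 and 85.5 CPM and Ifnar1 fell by 1.24 (SE 0.22, adjusted p = 0.00226). In both classes NCD was above every other library, and both calls held in 7 of 7 alternatives. B cells had 114, 48.2, 56.1 and 61.7 CPM (fell by 1.19, adjusted p = 0.0104), conventional DC type 2 had 112, 71.9, 68.5 and 65.7 (fell by 0.88, adjusted p = 0.00126), and conventional DC type 1 had 97.6, 64.3, 62.8 and 52.5 (fell by 0.75, adjusted p = 0.0297). These 3 calls were lost with DESeq2 and under 1 to 3 further alternatives. In the Cps1/Pck1-gated cells the levels were 73.1, 15.3, 16.04 and 32.9 CPM (fell by 1.92, adjusted p = 0.0177). Plasmacytoid DC held the highest level, 463 CPM in NCD and 147 to 223 in the other libraries, with an adjusted p of 0.05002 that was not under the threshold. Of the tested classes, NCD lay below both HFD libraries in 3, none of which passed. Macrophages had 60.3, 73.9, 67.1 and 75.4 CPM, nonclassical monocytes 59.7, 102, 90.3 and 98.3, and endothelial cells 37.7, 51.9, 46.4 and 41.1.

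Ifnar2, the partner chain, passed in no class. It was highest in plasmacytoid DC, at 733 CPM in NCD, 484 in HFD 1, 628 in HFD 2 and 538 in JQF, a range apart from that of neutrophils at 265 to 315, the next class. The closest to the threshold was NK cells, with 191, 152, 144 and 122 CPM and an adjusted p of 0.0629 for HFD against NCD.

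Of the interferon-gamma receptor genes, Ifngr1 was highest in NK cells, with 978 CPM in NCD, 535 in HFD 1, 728 in HFD 2 and 573 in JQF. NCD was above every other library there and Ifngr1 fell by 0.84 on the log2 scale (SE 0.21, adjusted p = 0.0191). The call was lost with DESeq2, without TMM scaling and with the stricter gate. In the Cps1/Pck1-gated cells Ifngr1 was 171, 14.2, 15.5 and 27.8 CPM and fell by 3.22 (SE 0.49, adjusted p = 0.00227), the largest drop of any member for HFD against NCD. In that class the endothelial markers summed to 738 CPM in NCD and to 7.63, 14.0 and 12.7 in HFD 1, HFD 2 and JQF, with 0, 4, 1 and 2 of 5 at 0. The class held 129, 58, 261 and 46 cells, and the part of those markers in its Ifngr1 and Ifnar1 values was not tested.

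Ifngr2, the signalling chain, was lowest in NK cells and T cells. T cells had 28.0 CPM in NCD, 10.2 in HFD 1, 12.3 in HFD 2 and 14.3 in JQF, and Ifngr2 fell by 1.36 (SE 0.26, adjusted p = 0.0390). Plasmacytoid DC had 165, 75.9, 50.2 and 68.3 CPM (fell by 1.58, adjusted p = 0.0245), and conventional DC type 2 had 138, 97.1, 87.7 and 101 (fell by 0.80, adjusted p = 0.00263). NCD was above every other library in all 3. The call in conventional DC type 2 held in 2 of 7 alternatives, that in plasmacytoid DC was lost with DESeq2 (adjusted p = 0.223), and that in T cells was lost without TMM scaling and with the other cell filter. In NK cells the level was 6.79 to 13.3 CPM in the 4 libraries, beside the high Ifngr1 level of the same cells.

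**Figure D5:**
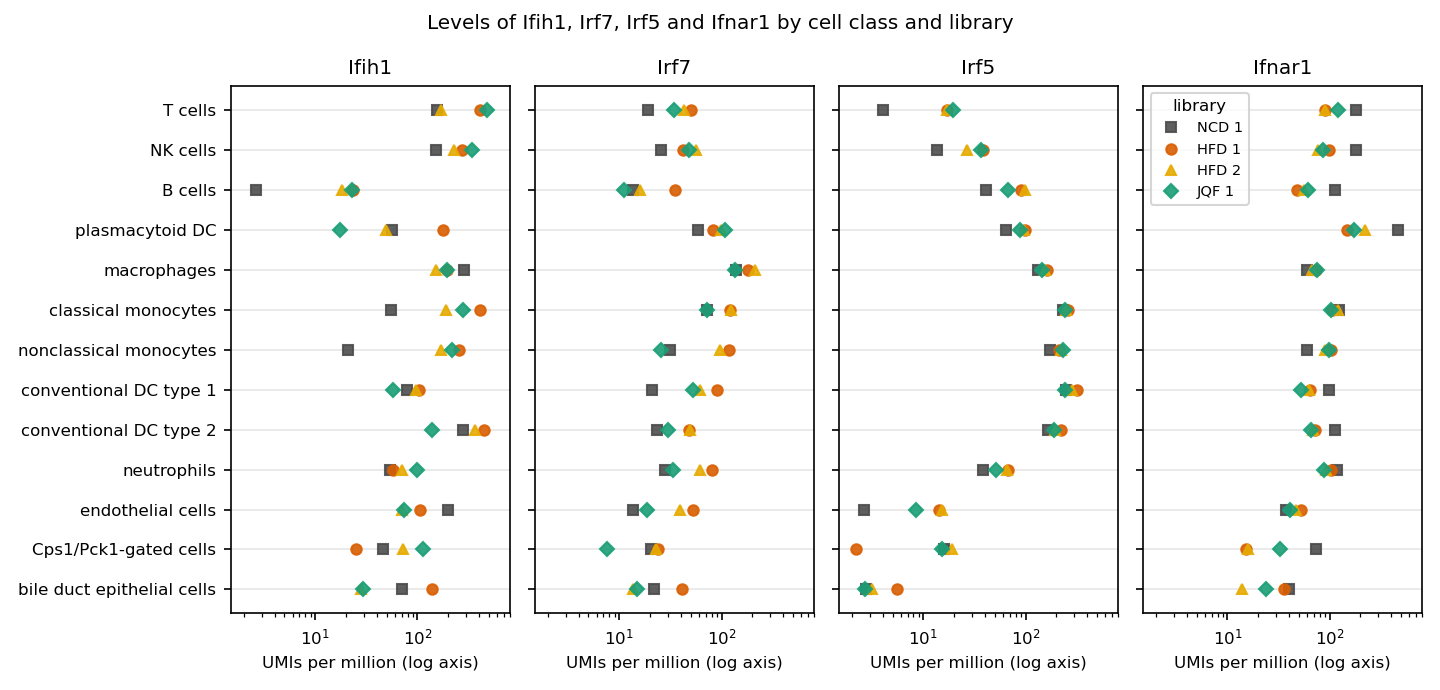
Levels of Ifih1, Irf7, Irf5 and Ifnar1 in CPM (x axis, log scale) in the 13 tested cell classes (y axis), with 1 symbol per library. Irf7 in NCD lies below both HFD libraries in conventional DC type 1 and nonclassical monocytes, and Ifnar1 in NCD lies above the other libraries in T, NK and B cells.

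The other genes of the pathway were followed as lists, of which 46 of 62 genes could be fitted in at least 1 class. For HFD against NCD, sensors and adaptors were higher in 11 and lower in 0 of 131 class tests, and kinases and factors of induction higher in 4 and lower in 14 of 88. Over all genes tested, 4.21% were higher and 6.3% lower, so the 4 higher calls of the latter list were near the share of all genes. Receptor signalling genes were higher in 12 and lower in 14 of 110. The interferon readout genes were higher in 36 and lower in 2 of 89 (40.4% and 2.25%), with a median log2 fold change of 1.91, or 1.79 with bounded values, against 0.10 over all tests. Their 2 lower calls were Cxcl10, an interferon-induced chemokine gene, in conventional DC type 1 and endothelial cells. Inflammatory genes were higher in 15 and lower in 7 of 89. Irf1, a factor induced by interferon-gamma, was lower in 8 classes. Of the ligand genes, 0 class tests were higher and 2 lower of 16, both of them Ifng, in NK cells and nonclassical monocytes. For JQF against HFD, the readout genes were higher in 0 and lower in 15 of 89, with a median of -0.84, or -0.82 with bounded values, against -0.01 over all tests. With DESeq2 the calls over all lists were 6 higher and 5 lower, against 9 and 18 here. Of the 15 calls, 7 were in nonclassical monocytes, 7 in conventional DC type 2 and 1 in NK cells. Inflammatory genes were higher in 6 and lower in 0 of 89, beside 0.483% higher and 0.166% lower over all genes. The ligand list had 1 higher and 0 lower of 16, the higher one being Ifng in NK cells. Of the 6 inflammatory calls, 3 were in NK cells, namely Il12b, Ccl3 and Ccl4. Il12b, which encodes a subunit of interleukin-12, was at 0 CPM in the NK cells of NCD 1, HFD 1 and HFD 2 and at 68.8 in JQF, where all 181 UMIs lay in 2 of 324 cells. Il12b was also among the 10 leading genes of the mature DC class, and the summed level of mature DC markers in NK cells was 25.8 CPM in NCD 1, 11.6 in HFD 1, 10.4 in HFD 2 and 69.2 in JQF. NK cells with 2 or more of these markers made up 0%, 0.426%, 0% and 0.926% of the class, and of the 5 markers 4, 1, 1 and 0 were at 0. Their part in this call was not tested.

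Among single readout genes, Ifit1, which encodes a protein that binds foreign RNA, was 34.0 CPM in NCD, 578 in HFD 1, 481 in HFD 2 and 311 in JQF in NK cells, higher in HFD by 3.76 ± 0.27 (adjusted p = 5.76e-06). In the same class Ifit2 was 5.43, 142, 108 and 107 CPM (4.31 ± 0.44, adjusted p = 5.50e-05). NCD was below every other library for both genes. Ifit3 in NK cells rose from 1 UMI to 584 in HFD, a ratio of 75.5 with a counting interval of 13.5 to 2987, and fell in JQF by 1.51 (SE 0.26, adjusted p = 0.0121), a call lost with the stricter gate (adjusted p = 0.132). In nonclassical monocytes Rsad2, which encodes the antiviral enzyme viperin, was 3.51 CPM in NCD, 212 in HFD 1, 199 in HFD 2 and 29.5 in JQF. HFD over NCD, with 1 UMI in NCD, gave a ratio of 57.9 (10.4 to 2292), and JQF was lower than HFD by a log2 difference of -2.72 ± 0.31 (adjusted p = 2.48e-06). JQF lay between NCD and the HFD libraries. Isg15 in that class gave a ratio of 32.8 (5.84 to 1298) and Ifit1 of 14.9 (2.64 to 592), each from 1 UMI in NCD. Ifit3 there was higher in HFD than in NCD by a bound of 3.95-fold at 3 UMIs.

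Rsad2 in conventional DC type 1 rose from 1 UMI in NCD to 1193 in HFD, a ratio of 131 (23.5 to 5184). In plasmacytoid DC, Usp18, a brake on interferon receptor signalling, was higher in HFD by a bound of 5.38-fold at 3 UMIs. Tnf there gave a ratio of 15.6 (4.25 to 130), with 3.76 CPM in NCD, 98.2 in HFD 1, 51.4 in HFD 2 and 33.9 in JQF. Removing second-lineage cells left this class 2 NCD and 7 HFD 1 cells, under the minimum of 20, with 1 of 3555 genes called, so the absence of both calls there says nothing about these genes. In conventional DC type 2, Rsad2 was 87.0, 150, 138 and 17.9 CPM, and JQF was lower than HFD by -2.85 ± 0.25 (adjusted p = 4.35e-27). Ifit2 there was 41.3, 233, 129 and 24.9 CPM (-2.69 ± 0.24), Ifit1 was 17.8, 102, 94.1 and 16.9 (-2.38 ± 0.24) and Oasl1 was 61.3, 102, 58.3 and 23.9 (-1.58 ± 0.23). JQF was below both HFD libraries for all 4 genes, and without the filter on low counts these 4 calls were lost together with every other call in the class, 0 of 18054 genes. In nonclassical monocytes Ifit2 was lower in JQF by a bound of 18.1-fold at 3 UMIs. Ifit3 fell there by 2.74 and Oasl1 by 1.93 on the log2 scale. The calls of Ifit2, Ifit3 and Oasl1, like that of Rsad2 in this class, were lost with DESeq2. Those of Ifit2 and Ifit3 there were also lost with the stricter gate (adjusted p = 0.140 and 0.200), and that of Oasl1 in conventional DC type 2 with DESeq2 (adjusted p = 0.756). Ccl3 went up in NK cells of JQF, with 1571 CPM in NCD, 288 in HFD 1, 359 in HFD 2 and 1184 in JQF (1.99 ± 0.19, adjusted p = 0.000376). With the stricter gate its adjusted p was 0.102, and 0 of 10409 genes were called in NK cells for JQF against HFD (1236 at an unadjusted p under 0.05, edgeR).

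Genes with the most similar pattern to each member were sought over 58 units of class and library and 19147 genes, by the Pearson correlation of log2(CPM + 1). The units share 4 libraries, so these are descriptions. Ifnb1 was most like Gm47754 (r = 0.669), Ocstamp (0.653) and Slamf8 (0.626), and Ifih1 most like Arl4c (0.757), Ifit1 (0.744) and Cgas (0.726). Irf5 followed Rassf4 (0.943), Spi1 (0.910) and Gm2a (0.902), and Irf7 followed Tcirg1 (0.838), Lair1 (0.793) and Cd68 (0.789). Irf3 was closest to Snhg8 (0.790), Gtpbp6 (0.774) and Ulk3 (0.772), and Irf9 to Gnai2 (0.808), Fes (0.794) and Bin3 (0.769). For the receptors, Ifnar1 was closest to Gm20186 (0.857), Apbb1ip (0.830) and Dclre1c (0.824), Ifnar2 to Lair1 (0.859), Slc49a4 (0.849) and Mknk1 (0.831), Ifngr1 to Lpcat4 (0.797), Pitpnm1 (0.769) and Galnt10 (0.759), and Ifngr2 to Sgk3 (0.799), Skap2 (0.783) and Cyfip1 (0.777). Between members, the closest pair was Ifnar1 with Ifnar2 (0.704).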

How the data were processed

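The authors deposited UMI counts per gene and cell for 4 liver libraries, made with 10x Single Cell 3' v3.1 chemistry on mm10. The submitters' processing notes name Cell Ranger 6.0.1 and Seurat 4.0.3, whereas the file headers give 7.0.0 for the filtered matrices and 4 for the matrices of all barcodes, so whether intronic reads were counted is not settled. Here the filtered counts were used, with cells of at least 500 genes and at most 20% mitochondrial UMIs. The kept libraries held 67615639 to 108062769 UMIs. A cell went to the class with the most detected of 5 markers if at least 2 were detected with a lead of 1, thresholds set after the data had been seen. Ties stayed unassigned. Mononuclear phagocytes included cells tied between classes of that lineage.

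Counts were summed per class and library, and 13 classes with at least 20 cells in each library were tested with edgeR 4.0.16 (quasi-likelihood test, TMM, filterByExpr, R 4.3.3) and Benjamini-Hochberg adjustment over all genes of a class at 0.05. The spread came from the HFD pair alone. In conventional DC type 2 the prior degrees of freedom were infinite, so p-values there rest on a spread shared over genes and not on each gene's own spread between the HFD libraries. In the other tested classes they were 2.74 to 28.5, highest in nonclassical monocytes, so p-values there rest in part on the shared spread. DESeq2 1.42.0, other scalings, filters and gates, and left-out libraries were alternatives. The script was tested on simulated data. Intervals are exact at 95%, and a fold against 0 used a floor of 3 UMIs. Such bounds and the counting intervals of ratios take UMIs as independent, although 1 cell can hold many. Other steps used Python 3.11.15, numpy 2.4.6, pandas 2.3.3, scipy 1.17.1 and matplotlib 3.10.9.

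Genes were named by these rules: the members, the 10 pathway genes with the largest called change per comparison whose mean level reached 20 CPM, the 3 genes most like each member among genes with at least 50 UMIs, and the 10 genes most enriched in Ifnb1-positive macrophages. Other genes named were chosen after their values had been seen. The members and lists were chosen with earlier results of these data known. Not every marker and pathway gene is reported here.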

Additional observations from a re-analysis of the deposited data

Results flagged for a closer look

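Ifih1 differed in direction between classes for HFD against NCD, with log2 fold changes of 2.88 in B cells, 3.23 in nonclassical monocytes and -1.42 in endothelial cells. Both HFD libraries lay above NCD in the first pair of classes and below it in endothelial cells, and the difference between classes was not tested.

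Ifnb1 was also found in barcodes outside the called cells, at 24.4 CPM of the UMIs there in HFD 1, 15.9 in HFD 2 and 3.40 in JQF 1, against 0.354 in NCD 1. These levels rest on 121, 146, 28 and 4 UMIs. In kept cells the Ifnb1 level was 20.4, 9.71, 4.22 and 0.552 CPM in that order, so in both HFD libraries the level outside was higher. The part of UMIs from outside cells in the Ifnb1 counts of kept cells was not tested. The share of all Ifnb1 UMIs found outside called cells was 8.03%, 12.2%, 5.97% and 7.14% in that order, beside 6.68%, 7.74%, 7.201% and 10.5% for all genes.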

How the results depend on the processing

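No called member or named pathway gene changed sign in an alternative that gave it a value, which DESeq2, the stricter gate and the removal of second-lineage cells did not for all of them. In B cells 0 genes were called without the filter, with the stricter gate or without second-lineage cells, in conventional DC type 2 none without the filter, and in NK cells none for JQF against HFD with the stricter gate, so calls lost there are lost for the whole class. With no filter, 3382 genes in B cells and 2971 in conventional DC type 2 had an unadjusted p under 0.05 for HFD against NCD. Members called for HFD against NCD numbered 23, and 12 with DESeq2. Those for JQF against HFD numbered 4, with 1 by DESeq2 and 7 without the filter on low counts. The pathway lists gave 117 calls for HFD against NCD and 74 with DESeq2. For JQF against HFD they gave 27, with 11 by DESeq2, 43 without TMM scaling and 60 without the filter. Among member calls for HFD against NCD, 47.8% were higher, against 58.3% with DESeq2, 59.3% without TMM scaling, 66.7% without the filter, 60.9% with the stricter gate and 61.9% without second-lineage cells. Against the main scaling, the median of all genes moved by -0.36 to 0.21 (log2) without TMM and by -0.36 to 0.10 with DESeq2 over the classes of HFD against NCD. Ifnb1 shares in NCD 1, HFD 1, HFD 2 and JQF 1 were 0.0574%, 1.72%, 1.14% and 0.427% after thinning, and counting only cells with at least 2 UMIs they were 0.0837%, 1.70%, 1.04% and 0.468%. The cause of these shifts was not tested. Leaving out an HFD library leaves no spread between samples, so those fits gave values with no test. Of 12 member results for JQF against HFD, 7 changed sign or moved by at least their standard error without HFD replicate 1, and 5 without HFD replicate 2. For HFD against NCD, 4 and 3 moved while 28 and 29 did not. Of 10 named pathway results for JQF against HFD, 2 moved when HFD 1 was left out and 2 when HFD 2 was. No paired analysis was possible because the groups share fewer than 2 replicate numbers. The NCD library held 20 to 29 cells of classical and nonclassical monocytes, plasmacytoid DC and bile duct epithelial cells, which limits every comparison with it there.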

Other observations

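Interferon-alpha genes were rare in the kept cells. Of 14 such genes, 9 had any UMI, with 12 UMIs in NCD 1, 122 in HFD 1, 59 in HFD 2 and 152 in JQF 1. Few cells held many of them, with 88 in 3 conventional DC type 1 of JQF 1 and 25 in 1 plasmacytoid DC of HFD 2. Interferon-alpha genes were found in 1 of 8 Ifnb1-positive cells of NCD 1 (12.5%), 13 of 176 in HFD 1 (7.39%), 10 of 194 in HFD 2 (5.15%) and 8 of 72 in JQF 1 (11.1%). Among Ifnb1-negative cells the shares were 0.0335%, 0.394%, 0.0497% and 0.189%. The share was higher in Ifnb1-positive cells of all 4 libraries, as a description with no test.

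Ifng, the ligand of the interferon-gamma receptor, was highest in NCD among the NK cells of the 4 libraries. Its level was 720 CPM in NCD 1, 213 in HFD 1, 249 in HFD 2 and 434 in JQF 1. NCD lay above every other library and JQF above both HFD libraries. Ifng fell by 1.85 (log2, SE 0.18, adjusted p = 4.73e-05) from NCD to HFD and was higher in JQF than in HFD by 1.03 ± 0.18 (adjusted p = 0.0127, edgeR). The second difference was not called with the stricter gate, under which 0 of 10409 genes were called in NK cells for this comparison, 1236 of them at an unadjusted p under 0.05.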
